A study of Mus musculus with 6 samples.

Results

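The lncRNAs Bvht, Fendrr, Miat, Hotair, Tug1 and Pvt1 have a known role in the heart or a reported link to Polycomb repressive complex 2 (PRC2), and were chosen by name, by a rule that uses no measured value, though with earlier results of these data known. All 6 had an entry in each of the tables made separately for a library, among 46072 genes, and 5 were named entries of the joint table of the series, among 44137 named entries. RIP-seq (sequencing of the RNAs that an immune precipitation brings down with a protein) was performed with an antibody to EZH2 or with normal IgG. The left ventricles came from male C57BL/6 mice of 10 weeks, with 2 mice in a group and about 100 mg of ventricle. Sham mice carried a minipump with saline according to the protocol and are labelled as not treated, while the other mice received Angiotensin II (AngII) at a stated rate of 1 mg/kg/min for 4 h or for 24 h. The strain tags of the anti-EZH2 libraries of AngII 4 h and AngII 24 h read C57BL/7 and C57BL/8, which was left as an open point of the labels. Because 2 RIP products were mixed into each library, every combination of group and antibody was 1 library and no combination had a replicate. No input library was analysed here, so a higher value in a group can stand for more of the RNA in the lysate or more of it on the beads, and in whole ventricle fewer cells of a type and less RNA per cell cannot be told apart.

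EZH2 is the enzyme of PRC2 that methylates histone H3 on lysine 27, a mark of silenced genes, and EED and SUZ12 are its core partners. Several long non-coding RNAs have been described as guides, scaffolds or decoys of the complex, and PRC2 is also known to bind many RNAs with little selectivity and to favour stretches rich in guanine. Bvht (Braveheart) is a mouse lncRNA needed when embryonic cells commit to the cardiovascular lineage, Fendrr acts in the lateral mesoderm from which heart and body wall form, and Miat takes its name from a locus tied to myocardial infarction. Hotair arises from the HoxC cluster and is the classic example of a lncRNA bound by PRC2, Tug1 is a widely transcribed lncRNA with reported binding to the complex, and Pvt1 lies beside the Myc oncogene.

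The transcripts of the 6 lncRNAs differed in guanine content, and 3 of them held 4 runs of at least 3 guanines with gaps of 1 to 7 nt, the sequence pattern of a possible G-quadruplex. The pattern was searched on the transcript strand only, in the longest transcript of each gene in GENCODE M21 (GRCm38, the assembly called mm10). It was found in Miat (2 stretches in 9163 nt), Pvt1 (2 in 3319 nt) and Tug1 (1 in 6719 nt), and in 8.97% of 10440 other lncRNA genes whose longest transcript had between 588 and 9163 nt. Miat, Tug1 and Pvt1 have the longest transcripts of the 6, and a longer transcript offers more places for a match. The other genes share this range of length but were not matched on length, so the shares are not directly comparable. The stretches of these 3 lncRNAs are printed to show the pattern, with each run of guanines in capitals.

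Miat (chr5:112217475-112217507, minus strand): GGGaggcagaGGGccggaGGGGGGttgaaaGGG
Miat (chr5:112215975-112215998, minus strand): GGGcccttaGGGcttatGGGaGGG
Tug1 (chr11:3643773-3643800, minus strand): GGGaataataGGGaagaataGGGGtGGG
Pvt1 (chr15:62377053-62377075, plus strand): GGGtaaGGGaggatGGGataGGG
Pvt1 (chr15:62377841-62377863, plus strand): GGGataGGGaGGGtttaggtGGG

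With gaps of up to 12 nt, Fendrr also had 1 stretch, and the share among the other lncRNA genes was 17.0%. That stretch lay at the 5′ end of its longest transcript.

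Fendrr (chr8:121083067-121083109, minus strand): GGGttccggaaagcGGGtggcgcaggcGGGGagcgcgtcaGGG

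Triplets of guanines, counted without overlap, were densest per kb of transcript in Miat (24.4) and Bvht (22.1), followed by Fendrr (15.4) and Pvt1 (14.2). They were sparse in Hotair (5.98) and Tug1 (4.91), and a long run can hold several triplets. The quartiles of the other lncRNA genes were 7.56 and 13.8 per kb, with a median of 10.5. Bvht and Hotair held no stretch of the pattern under either gap. A match is a pattern of letters, and folding and binding were not measured.

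The 6 libraries were shallow. The steps between low values placed them at 3807604 to 7968530 fragments, and between 12348 and 14535 named entries were above 0 in the series table. All 6 cardiomyocyte markers examined were above 0 in every library, and their summed FPKM (fragments divided by transcript length and library size) was 1933 to 2167 in the Sham and AngII 4 h libraries and 5849 and 6172 in the AngII 24 h libraries. The atrial markers summed to 17.5 and 13.8 in the Sham libraries and to between 3.72 and 5.66 in the others, with Sln at 0 in all. Over the same libraries mitochondrial genes took 48.4% to 58.5% of the FPKM of the series table in Sham and AngII 4 h, but 17.1% and 35.0% in AngII 24 h. The library tables did not show this drop, with 6.72% to 13.7% in Sham and AngII 4 h and 13.9% and 31.3% in AngII 24 h. The part of the markers and of the mitochondrial share in the results below was not tested.

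**Figure D1:**
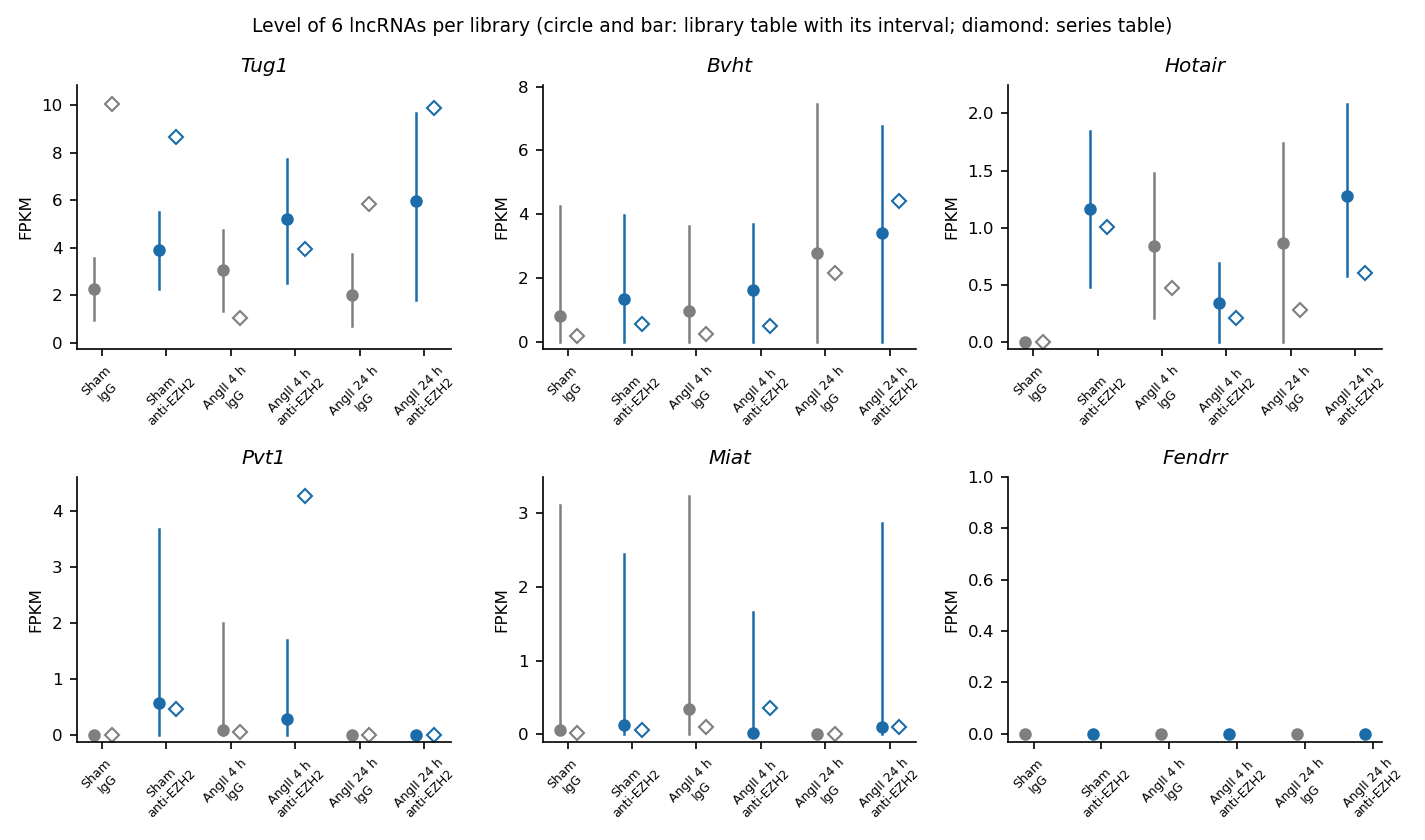
FPKM of the 6 lncRNAs in the 6 libraries (grey, IgG; blue, anti-EZH2). Circles with bars are the value and the deposited interval of the table made for that library, diamonds are the series table, and the panel of Fendrr holds only circles at 0. In the series table, Tug1 ranges from 1.01 to 10.1 FPKM and Bvht is highest in the AngII 24 h libraries.

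Bvht was detected in all 6 libraries, was highest in both AngII 24 h libraries and was higher with anti-EZH2 than with IgG in every group. Its gene occupies 7931 nt of chromosome 18 (chr18:61639542-61647472, plus strand), with 2 annotated transcripts of 483 and 588 nt and 3 exons in each, and overlaps no other annotated gene. In the series table Bvht measured 0.200 FPKM in Sham IgG, 0.571 in Sham anti-EZH2, 0.244 in AngII 4 h IgG, 0.502 in AngII 4 h anti-EZH2, 2.17 in AngII 24 h IgG and 4.41 in AngII 24 h anti-EZH2. Both AngII 24 h libraries thus lay above the other 4, and so did 32.0% of the 9655 entries that were above 0 in all libraries. The tables of the single libraries gave 0.823, 1.36, 0.987, 1.62, 2.80 and 3.41 FPKM in the same order, where 5.37% of 11518 genes had both AngII 24 h libraries on top.

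The anti-EZH2/IgG ratio of Bvht was 2.85 in Sham, 2.06 in AngII 4 h and 2.03 in AngII 24 h in the series table. Each library's own table gave 1.66, 1.65 and 1.22. An anti-EZH2 library above IgG in all groups was found for 17.6% of the entries above 0 throughout in the series table and for 7.07% in the library tables, or 23.2% and 19.5% of the non-coding ones. The deposited intervals of Bvht overlapped in each pair and all began at 0. If every read came from the longer transcript, the library values correspond to between 1.37 and 6.27 reads, so that the differences between libraries were not resolved at this depth.

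A limma fit on log2(FPKM + 0.1), with treatment group and antibody as terms and 12530 entries tested, took the 3 pairs together. It has no term for a change of the antibody difference with treatment, which single libraries cannot give. Bvht was 0.99 higher on the log2 scale with anti-EZH2 (SE 0.34, n = 3 pairs, unadjusted p = 0.0349, limma adjusted p = 0.874). Against Sham it was 2.83 higher at AngII 24 h (SE 0.42, 2 libraries in each group, unadjusted p = 0.00114, limma adjusted p = 0.150) and 0.02 higher at AngII 4 h (SE 0.42, limma adjusted p = 1). The median of all entries moved by 0.37 between Sham and AngII 24 h, and the AngII 24 h difference of Bvht was 2.15 when the libraries were centred on their medians and 1.76 with mitochondrial genes left out. Under these scalings the median of all entries was -0.22 and -0.62. They shifted the difference of Bvht by less than its size, so that its sign could hardly turn. The part of library scale in this difference was not tested.

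Fendrr was listed at 0 in the separate tables of all 6 libraries. Its gene (chr8:121054882-121083110, minus strand) has 3 transcripts of 1092 to 2410 nt, and lies inside the annotated readthrough gene Gm20388 of the opposite strand. A count of 3 reads on the longest transcript would have given between 0.171 and 0.357 FPKM, and on the shortest between 0.423 and 0.886 FPKM, so that levels below these limits are not excluded. Fendrr was not a named entry of the series table, and no ratio was calculated. Foxf1, the transcription factor gene that starts 1.275 kb away on the opposite strand, was not a named entry there either.

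Miat stayed near the limit of detection, and the forms of table gave opposite directions at AngII 4 h. The gene (chr5:112213228-112229395, minus strand) has 6 transcripts between 284 and 9163 nt. Its series-table FPKM was 0.0227 in Sham IgG, 0.0559 in Sham anti-EZH2, 0.0997 in AngII 4 h IgG, 0.361 in AngII 4 h anti-EZH2, 0 in AngII 24 h IgG and 0.104 in AngII 24 h anti-EZH2. In each pair the anti-EZH2 library was the higher, with ratios of 2.46 in Sham and 3.62 in AngII 4 h and none at AngII 24 h, where IgG was 0. In the library tables the values were 0.0540, 0.123, 0.349, 0.0150, 0 and 0.0977 FPKM, and the AngII 4 h ratio was 0.0430. At most 16.4 reads lie behind any of these values if all came from the longest transcript. Over the 3 pairs Miat was 0.86 higher on the log2 scale with anti-EZH2 (SE 0.60, limma adjusted p = 0.874). Its differences from Sham were 1.13 at AngII 4 h (SE 0.74, limma adjusted p = 0.956) and 0.05 at AngII 24 h (SE 0.74, limma adjusted p = 0.990), and the latter was -0.15 with centred libraries and -0.22 without mitochondrial genes.

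Hotair gave the only pair whose deposited intervals did not overlap, in Sham, where the interval of IgG runs from 0 to 0, and the order of the antibodies turned at AngII 4 h. The gene (chr15:102944062-102947730, minus strand) has 1 annotated transcript of 2006 nt in 2 exons, so that its FPKM could be turned into reads, all within 0.0561 of a whole number. With IgG and with anti-EZH2, Hotair had 0 and 12 reads in the Sham libraries, 8 and 5 in the AngII 4 h libraries, and 6 and 11 in the AngII 24 h libraries, 42 reads in all. The anti-EZH2 library was above IgG in Sham and AngII 24 h and below it in AngII 4 h.

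**Figure D2:**
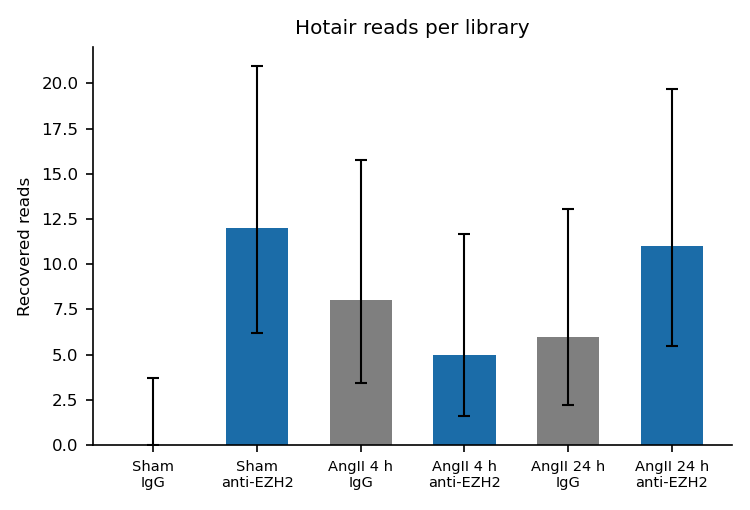
Hotair reads recovered from the FPKM of each library's own table (grey, IgG; blue, anti-EZH2), with exact 95% Poisson intervals that cover counting error only. No read was found in Sham IgG, against 12 in Sham anti-EZH2, and the other 4 libraries have 5 to 11 reads with overlapping intervals.

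Set against the library sizes, the ratio of anti-EZH2 to IgG reads in Sham had an exact 95% lower limit of 2.11 and no upper limit, and it was 3.04 with IgG put at the 3 reads that a count of 0 allows. The ratio of reads was 0.411 in AngII 4 h (exact 95% interval 0.106 to 1.43) and 1.46 in AngII 24 h (0.496 to 4.82), and both intervals include a ratio of 1.0. These intervals compare 2 libraries and not the conditions. The FPKM of the series table were 0, 1.00, 0.472, 0.215, 0.282 and 0.607 from Sham IgG to AngII 24 h anti-EZH2, with ratios of 0.456 in AngII 4 h and 2.15 in AngII 24 h. In the fit Hotair was 1.16 higher on the log2 scale with anti-EZH2 (SE 0.90, limma adjusted p = 0.874), and this difference was 0.01 without the Sham pair and 2.18 without the AngII 4 h pair. Its differences from Sham were 0.35 at AngII 4 h (SE 1.11, limma adjusted p = 1) and 0.65 at AngII 24 h (SE 1.11, limma adjusted p = 0.791). The neighbouring Hoxc11 and Hoxc12, homeobox genes 6.70 and 5.45 kb away on the opposite strand, were at 0 in all 6 libraries of the series table.

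Tug1 was the most abundant of the 6 lncRNAs per length of transcript, in the mean over libraries of both forms of table (6.57 FPKM in the series table, 3.73 in the library tables). Its gene (chr11:3639785-3649673, minus strand) has 8 transcripts of 382 to 6719 nt and meets Morc2a, of the opposite strand, at its 5′ end. The library tables gave 2.26 FPKM in Sham IgG, 3.89 in Sham anti-EZH2, 3.05 in AngII 4 h IgG, 5.22 in AngII 4 h anti-EZH2, 1.99 in AngII 24 h IgG and 5.97 in AngII 24 h anti-EZH2. All 3 anti-EZH2 libraries lay above all 3 IgG libraries there, with ratios of 1.72, 1.71 and 2.99 in the order Sham, AngII 4 h and AngII 24 h, although the deposited intervals of each pair overlapped. The share of genes with this full order was not calculated. The weaker order, anti-EZH2 above IgG within each group, held for 7.07% of the genes above 0 throughout and 19.5% of the non-coding ones. The series table gave 10.1, 8.67, 1.01, 3.95, 5.83 and 9.88 FPKM, the lowest values being those of AngII 4 h, and ratios of 0.862, 3.89 and 1.69. In that table the Sham pair went the other way and the antibodies overlapped.

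On the series table Tug1 was 0.80 higher on the log2 scale with anti-EZH2 (SE 0.45, limma adjusted p = 0.874), and 0.27 without the AngII 4 h pair. Its difference from Sham was -2.15 at AngII 4 h (SE 0.55, unadjusted p = 0.0118, limma adjusted p = 0.956) and -0.30 at AngII 24 h (SE 0.55, limma adjusted p = 0.811). The library tables did not share the low AngII 4 h values, since both AngII 4 h values there were above the Sham value of the same antibody.

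Pvt1 was found in 3 of 6 libraries, and its highest value depended on the form of table. The gene spans 340111 nt (chr15:62037986-62378096, plus strand), with 10 transcripts of 501 to 3319 nt, and starts 47.6 kb downstream of Myc, the oncogenic transcription factor with which it shares its strand. In the series table Pvt1 was 0 in Sham IgG, 0.475 in Sham anti-EZH2, 0.0604 in AngII 4 h IgG, 4.27 in AngII 4 h anti-EZH2, and 0 in both AngII 24 h libraries. The AngII 4 h ratio was 70.7 there but 3.05 in the library tables, where Pvt1 had 0.0966 FPKM with IgG and 0.295 with anti-EZH2 and its highest value was 0.587 in Sham anti-EZH2. At most 1.58 reads with IgG and 7.32 with anti-EZH2 lie behind the AngII 4 h library values if all came from the longest transcript. The deposited intervals of this pair overlapped and both began at 0. Pvt1 was 2.43 higher on the log2 scale with anti-EZH2 (SE 1.01, unadjusted p = 0.0613, limma adjusted p = 0.874), and 1.26 without the AngII 4 h pair. Its differences from Sham were 1.80 at AngII 4 h (SE 1.23, limma adjusted p = 0.956) and -1.26 at AngII 24 h (SE 1.23, limma adjusted p = 0.621).

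**Figure D3:**
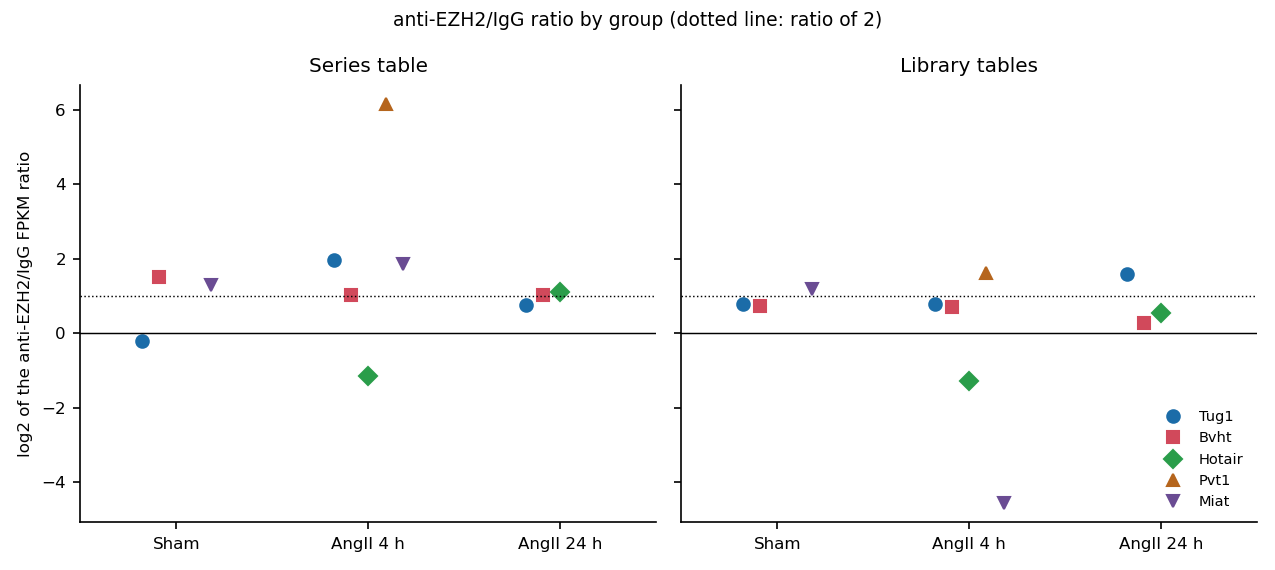
log2 of the anti-EZH2/IgG FPKM ratio of 5 lncRNAs in the 3 groups, in the series table (left) and in the library tables (right), without a pseudocount; pairs with a library at 0 have no point. The solid line is a ratio of 1.0 and the dotted line a ratio of 2. Tug1 lies below 1.0 in Sham in the series table but above it in each group in the library tables, and Miat at AngII 4 h changes from 3.62 to 0.0430.

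Short RNAs are annotated inside Tug1, Pvt1 and Miat on the same strand, and their values are set here beside the gaps between the forms of table. Each of these lncRNAs holds 4 such segments of the class misc_RNA, with their own rows in the library tables, and the segments of Bvht, Hotair and Fendrr numbered 0. In the library tables only 4 of the 12 segments were above 0 in any library, and none of these 4 had its own named entry in the series table. Of these 4, the 3 segments of Tug1 and Pvt1 are printed here because their values are set beside those of the lncRNAs in what follows, with runs of at least 3 guanines in capitals.

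Gm27517 (in Tug1, chr11:3645286-3645521, minus strand): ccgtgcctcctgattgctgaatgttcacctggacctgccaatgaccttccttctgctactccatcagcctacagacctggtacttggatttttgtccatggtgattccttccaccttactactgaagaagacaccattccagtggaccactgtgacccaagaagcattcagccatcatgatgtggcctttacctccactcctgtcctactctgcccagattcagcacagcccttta
Gm27624 (in Tug1, chr11:3644776-3644952, minus strand): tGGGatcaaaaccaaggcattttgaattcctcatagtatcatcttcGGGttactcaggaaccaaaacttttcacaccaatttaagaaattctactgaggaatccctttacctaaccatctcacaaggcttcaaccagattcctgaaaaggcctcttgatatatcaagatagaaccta
Gm27913 (in Pvt1, chr15:62038029-62038201, plus strand): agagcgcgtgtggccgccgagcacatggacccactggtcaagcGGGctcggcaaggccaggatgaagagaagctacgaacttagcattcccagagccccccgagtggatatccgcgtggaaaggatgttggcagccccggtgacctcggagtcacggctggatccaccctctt

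Gm27517 (236 nt) lies whole within an exon of 5 of the 8 Tug1 transcripts, and Gm27624 (177 nt) within an exon of 4. Gm27913 (173 nt) overlaps the first exon of 5 of the 10 Pvt1 transcripts and lies whole within it in 1. The summed library FPKM of the Tug1 segments was 15.5 in Sham IgG, 10.6 in Sham anti-EZH2, 0 in AngII 4 h IgG, 3.90 in AngII 4 h anti-EZH2, 8.00 in AngII 24 h IgG and 0 in AngII 24 h anti-EZH2. The libraries with the largest sums were those in which the series value of Tug1 was most above its library value, by 4.46-fold in Sham IgG, 2.93-fold in AngII 24 h IgG and 2.23-fold in Sham anti-EZH2. AngII 4 h IgG, with segments at 0, had the lowest multiple (0.333), but the order was not kept throughout, since AngII 24 h anti-EZH2, also with segments at 0, had 1.66, and AngII 4 h anti-EZH2, with segments at 3.90 FPKM, had 0.757.

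Gm27913 was at 14.1 FPKM in AngII 4 h anti-EZH2 and at 0 in the other 5 libraries. In that library the series value of Pvt1 was 14.5-fold its library value, against 0.808 and 0.625 in the other 2 libraries with Pvt1. Gm27998, a segment of 361 nt in Miat, was likewise above 0 only in AngII 4 h anti-EZH2 (0.766 FPKM), where the series value of Miat was 24.0-fold its library value, and in the other 4 libraries with Miat the multiple was 0.285 to 1.07. Over all shared genes the median multiple of a library was between 0.360 and 0.881. The rows of these segments carry the status LOWDATA, and the part of the segments in the series values was not tested. For Bvht, which holds no segment, the multiple ran from 0.243 to 1.29 (Sham IgG and AngII 24 h anti-EZH2) and for Hotair from 0.324 to 0.861.

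**Figure D4:**
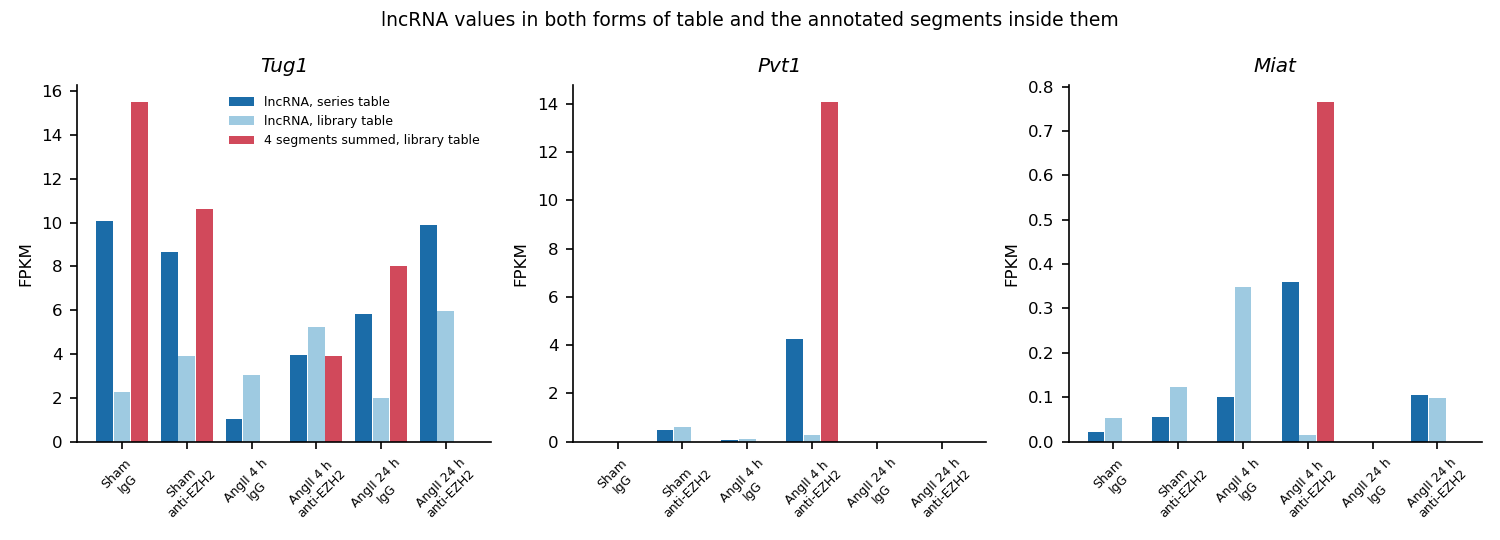
FPKM of Tug1, Pvt1 and Miat in the series table (dark blue) and in the library tables (light blue), with the summed library FPKM of the 4 annotated segments inside each (red), by library. The segments of Pvt1 and Miat are above 0 only in AngII 4 h anti-EZH2, at 14.1 and 0.766 FPKM, where the series values of both are highest.

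The study screened RNAs for no library at 0, reads above 1.0 and an anti-EZH2/IgG ratio above 2. It does not state in which library the minimum had to be met, and the minimum was applied here to FPKM. Of the 6 lncRNAs only Tug1 and Bvht were above 0 in all libraries of the series table. When the minimum of 1.0 FPKM was asked of the anti-EZH2 library of the group itself, only Tug1 was eligible in Sham, with a ratio of 0.862, and 0 of 1 passed, where 19.2% of 4196 entries and 36.0% of 200 non-coding entries passed. In AngII 4 h Tug1 was again the only eligible one and passed with 3.89, beside 16.0% of all entries and 28.0% of non-coding ones. In AngII 24 h, Bvht passed with 2.03 and Tug1 did not with 1.69, beside 24.3% and 23.7%.

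The reading of the minimum decided the count for Bvht. The study lists Bvht as associated with EZH2 in all groups, with the same ratios as the series table. A minimum of 1.0 FPKM in the group itself does not give that listing, since Bvht was below it with anti-EZH2 in Sham and AngII 4 h. On the longer transcript the library values of Bvht there correspond to 2.98 and 4.98 reads. A minimum in reads, the unit the study names, was not applied. When the minimum had to be met by the anti-EZH2 library of at least 1 group, both lncRNAs were eligible throughout, and Bvht passed in each of the groups with its ratios of 2.85, 2.06 and 2.03. With Tug1 in AngII 4 h this made 1 of 2, 2 of 2 and 1 of 2, beside 16.8%, 14.9% and 21.8% of 6140 entries and 33.7%, 27.2% and 25.1% of 243 non-coding ones. In the library tables Bvht passed in no group under either reading. The counts there were 0 of 2 in Sham, 0 of 2 in AngII 4 h and 1 of 2 in AngII 24 h, namely Tug1, beside 16.1%, 13.0% and 10.9% of the genes with the minimum in the group and 14.2%, 12.6% and 9.38% with the minimum in any group. Each threshold is set on single libraries, and the ratios of Bvht in AngII 4 h and AngII 24 h lay just above it.

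Other limits also moved the counts. With the minimum in the group, a ratio above 4 left 0 of 1, 0 of 1 and 0 of 2 of the eligible lncRNAs in Sham, AngII 4 h and AngII 24 h, beside 6.55%, 4.42% and 8.55% of all entries. A ratio above 1.5 was met by 0 of 1, 1 of 1 and 2 of 2, beside 31.2%, 30.0% and 36.1%. When only the libraries of the group had to be above 0 and no FPKM minimum was set, Bvht and Miat passed in Sham (2 of 3, beside 19.1%), Bvht, Miat, Pvt1 and Tug1 in AngII 4 h (4 of 5, beside 19.2%) and Bvht and Hotair in AngII 24 h (2 of 3, beside 22.5%).

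With the antibodies exchanged and the minimum kept, none of the lncRNAs passed in any group, where 17.4%, 9.69% and 20.1% of the entries did. Without the minimum, Hotair passed the exchanged criteria in AngII 4 h (1 of 5, beside 1466 of 12262 entries). No lncRNA did in Sham (0 of 3, beside 1839 of 11342 entries) or AngII 24 h (0 of 3, beside 1833 of 10843). In the library tables Hotair and Miat passed them in AngII 4 h (2 of 5, beside 16.3%).

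All 5 lncRNAs in the limma fit had a positive antibody difference, with a median of 0.99 on the log2 scale. The median over all entries was 0.10, with a positive sign in 57.1% of them. The 5 signs stayed positive with centred libraries and without mitochondrial genes. These scalings moved the median of all entries only to 0.06 and -0.13, so they could hardly turn differences of 0.80 or more. The library tables were not fitted. None of the 5 passed an adjusted p of 0.05, and neither did any other entry (percent called 0.0, with 654 of 12530 at an unadjusted p under 0.05), so no difference between the antibodies was established by this test. Between AngII 4 h and Sham 0 of 5 passed, where 0.0239% of entries did, and between AngII 24 h and Sham 0 of 5, where 0.0479% did. These last 2 comparisons share the Sham libraries. With 2 residual degrees of freedom of its own for each entry, the fit leaned on the spread shared by all entries. The samples pair IgG and anti-EZH2 within a treatment group, and no biological replicate stands behind any p.

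**Figure D5:**
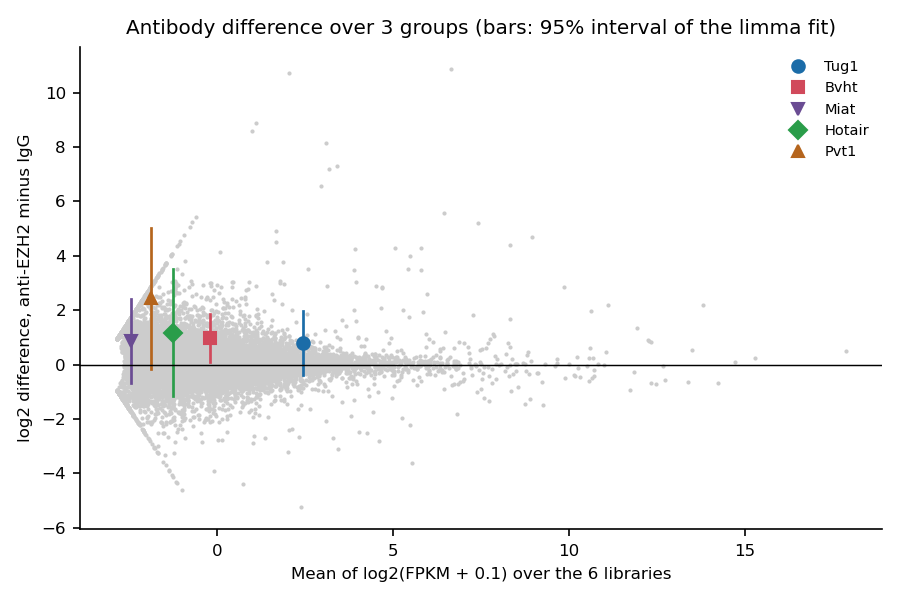
Antibody difference (anti-EZH2 minus IgG, log2 scale, over the 3 groups) against the mean of log2(FPKM + 0.1) over the 6 libraries, for 12530 entries (grey) and 5 lncRNAs (coloured, with the 95% interval of the limma fit). All 5 lie above 0, from 0.80 to 2.43, and only the interval of Bvht does not reach 0.

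The subunits of PRC2 and its cofactors were measured at a low level and 0 of the 10 that passed the filter, of 12 listed, passed the test in any of the 3 comparisons. Their median antibody difference was 0.21 on the log2 scale, beside 0.10 for all entries. The listed genes with the highest mean FPKM were the histone-binding subunits Rbbp7 and Rbbp4 (at most 4.48 and 5.11 in a library) and the cofactor Aebp2 (at most 3.13), with antibody differences of 0.21, 0.71 and 0.22. Ezh2 mRNA, named here as that of the precipitated protein and outside the rule, was between 0.289 and 0.846 FPKM.

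Among 21 other lncRNAs with a described role in the heart or with PRC2, 12 were named entries of the series table, 7 passed the filter and 0 passed the test in any comparison. Of the 7, 6 had a positive antibody difference, with a median of 0.91. The 3 with the highest means were Gas5, Malat1 and H19. Gas5, a growth arrest transcript that hosts snoRNAs, differed by 5.57 on the log2 scale (SE 1.41, limma adjusted p = 0.874). Malat1, an abundant nuclear lncRNA, differed by 1.67 (SE 0.25, limma adjusted p = 0.729) and H19, an imprinted lncRNA, by -2.71 (SE 1.49, limma adjusted p = 0.874). With anti-EZH2, Gas5 was at 4635 FPKM in Sham and 3994 in AngII 4 h, but at 11.2 in AngII 24 h. H19 was at 86.4 FPKM in AngII 4 h IgG and between 0.440 and 1.89 in the other libraries.

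Protein-coding genes beside the 6 lncRNAs, or tied to them by earlier work, numbered 18 on the list, of which 15 were named entries and 7 stood at 0 in every library. None of the 7 that passed the filter passed the test. Csnk1a1, a kinase gene 49.5 kb upstream of Bvht, measured between 5.57 and 8.58 FPKM, and it was 0.36 higher at AngII 24 h on the log2 scale (SE 0.30, limma adjusted p = 0.560). Smtn, which encodes the smooth muscle protein smoothelin, and Osbp2, which encodes an oxysterol-binding protein, flank Tug1, and their differences between AngII 4 h and Sham were -0.20 and -0.48. Myc was between 0 and 0.361 FPKM, and it was at 0.0514 in AngII 4 h anti-EZH2, the library with the highest Pvt1 of the series table.

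The entries closest in pattern over the 6 libraries, by the root mean square difference of centred log2(FPKM + 0.1) among 5036 entries with a mean of at least 1.0 FPKM, were Bcl7c (0.29), Hist1h4h (0.30) and Pgp (0.30) for Bvht. For Tug1 they were H2-Eb1 (0.37), Ggta1 (0.38) and Pdap1 (0.39), for Hotair Slc25a22 (0.36), Cep85 (0.43) and RP24-487F9.4 (0.48), and for Miat Ap3m1 (0.19), Rps6kb2 (0.20) and Prr13 (0.20). Pvt1 had no near match, the closest being Zeb2os (0.69), Mrm1 (0.91) and Vis1 (1.02). Hist1h4h, a histone H4 gene, shared with Bvht the high AngII 24 h values (18.4 and 24.7 FPKM, against 2.57 to 4.71 in the other libraries), and Zeb2os shared with Pvt1 a peak in AngII 4 h anti-EZH2 (10.02 FPKM). The 6 points of each pattern are single libraries, and likeness over them is a description.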

How the data were processed

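RIP-seq libraries (3 groups, 2 antibodies, 1 library each) were stranded. The authors used TopHat2 for mapping (mm10). The deposited FPKM come as 1 table for the series and 1 for each library, the latter with an interval for each FPKM; the program is not given in the sources used here. Entries without a gene name (245, at most 0.935% of the FPKM) were left out. Library tables were joined by gene identifier, and 787 values below 0.001 FPKM were set to 0. Ratios used no pseudocount. The limma fit (limma 3.58.1, R 4.3.3, trend, Benjamini-Hochberg) used log2(FPKM + 0.1) of entries with a mean FPKM of at least 0.1 and was tested on simulated data. Reads were recovered as FPKM times effective length (fragments of 200 nt, SD 80, 34 to 600) times the library size inferred from steps of genes with 1 transcript; 65.1% of 12215 low values were whole to within 0.1 reads, where 20% would be by chance, and no count test was run on them. For genes with several transcripts the reads are only bounds. Exact intervals (95%) and the 3-read floor cover counting error only. Sequences and positions came from GENCODE M21 (GRCm38). The lncRNAs, gene lists and tests were chosen with earlier results of these data known. Named were the 6 lncRNAs, the 3 genes of each list with the highest mean where none passed, and the 3 closest patterns. A ratio counted as moved when it changed by over 1.5-fold. Calculations were run in Python 3.11.15 (scipy 1.17.1, pandas 2.3.3, numpy 2.4.6), and plots were drawn with matplotlib 3.10.9.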

Additional observations from a re-analysis of the deposited data

Results flagged for a closer look

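The anti-EZH2/IgG ratio of 3 lncRNAs lay on opposite sides of 1.0 in different groups. With 1 library of each kind this difference between groups was not tested. Hotair had a ratio of 0.456 in AngII 4 h and 2.15 in AngII 24 h in the series table, and of 0.411 and 1.46 in the library tables. Tug1 had 0.862 in Sham, 3.89 in AngII 4 h and 1.69 in AngII 24 h in the series table, but was above 1.0 in each group in the library tables. Miat had 2.28 in Sham and 0.0430 in AngII 4 h in the library tables, and was above 1.0 in both of these groups in the series table.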

How the results depend on the processing

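The treatment group is a term of the fit and pairs the antibodies, and the labels carry no replicate numbers for any other block. Under the alternatives none of the 111 refitted differences of the lncRNAs passed an adjusted p of 0.05 in limma (smallest 0.0850, Bvht at AngII 24 h among entries with a mean of at least 1.0 FPKM). The sign changed in 5 of the 111, for Miat at AngII 24 h (pseudocount 0.01, centred libraries, no mitochondrial genes) and for Bvht and Hotair at AngII 4 h (pseudocount 1.0). No filter, a mean of at least 1.0 FPKM and no trend (15, 6 and 15 of the 111) leave each difference as it is. Only its p could change there. Without mitochondrial genes 2 entries passed for the antibody, 5 for AngII 4 h and 12 for AngII 24 h, against 0, 3 and 6. For AngII 4 h none passed with a pseudocount of 1.0 or without trend (0, with 477 and 596 at an unadjusted p under 0.05 in limma), and without trend 2 passed for AngII 24 h. Leaving out a pair gave antibody counts of 0 to 0. Of the ratios, 28 of 46 comparisons moved by at most 1.5-fold, 17 by more, and Miat at AngII 4 h turned to 0.0430 in the library tables. Among the 28, 11 were divisions by a median ratio between 0.990 and 1.10, which could not move a ratio that far. From each library's own table, 4 ratios stayed within 1.5-fold, 6 moved by more and 1, that of Miat at AngII 4 h, turned from above 2. Among the 6, Tug1 in Sham also crossed 1.0, from 0.862 to 1.72. Without the FPKM minimum and with only the libraries of the group above 0, the lncRNAs past the criteria numbered 2, 4 and 2 in Sham, AngII 4 h and AngII 24 h. With the minimum in at least 1 group they numbered 1, 2 and 1. With a ratio above 4 they numbered 0 in AngII 4 h and 0 in AngII 24 h, with the antibodies exchanged 0 and 0, from each library's own table there were 0 in AngII 4 h, and with a ratio above 1.5 there were 2 in AngII 24 h. All entries past the criteria numbered 805, 640 and 1268, but 2165, 2352 and 2443 without the minimum, and 275, 177 and 447 with a ratio above 4. With a ratio above 1.5 they were 1308 in Sham and 1204 in AngII 4 h, from each library's own table they were 972 in AngII 4 h and 720 in AngII 24 h, and with the antibodies exchanged 364 in AngII 4 h. The minimum in at least 1 group, the non-coding background and the ratio of Hotair from reads were added after seeing the data. Why the values moved was not tested. Few or no reads lie behind the values of the lncRNAs, and for Tug1 the number is uncertain. Its library values correspond to between 49.4 and 271 reads on its longest transcript and to between 1.38 and 7.56 on its shortest.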
